A study of Mus musculus with 18 samples.

Results

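The enzymes that write and erase methyl and acetyl groups on histones, together with those that methylate and demethylate DNA, were followed as 60 genes in mouse CD4 T cells lacking Id3. The members are the genes whose symbols begin with Hdac, Kdm or Kmt and a digit, Setd1 to Setd7, Setdb1 and Setdb2, Dnmt1, Dnmt3a and Dnmt3b, Tet1 to Tet3, Ezh1, Ezh2 and Sirt1 to Sirt7, which are 60 of the 12547 genes of the deposited table. They fall into 18 KMT and SET domain methyltransferases, 17 lysine demethylases, 10 zinc-dependent deacetylases, 7 sirtuins, 3 DNA methyltransferases, 3 TET dioxygenases and 2 H3K27 methyltransferases. The rule reads gene symbols alone, though it was set with earlier results of these data known. Polyadenylated RNA was sequenced from 18 libraries of cultured mouse CD4 T cells. The groups are Id3 KO cells and WT cells in each of 3 sets, which the labels number 3, 5 and 6, with 3 libraries per group. Cells of every group began as naive CD4 cells, were activated by microbeads carrying antibodies to CD3 and CD28, and grew in IMDM with serum, IL2, IL12 and an antibody against IL4, a medium that directs cells to the Th1 fate. The meaning of the set numbers is not stated. In the authors' deposited table the names of the comparisons put 24 beside set 3 and 96 beside sets 5 and 6, with no unit. The labels give neither the allele that removes Id3, nor the strain, age or number of the mice, so the p-values measure the spread between these libraries, which may be technical.

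Lysine acetylation loosens the hold of histones on DNA and is removed by histone deacetylases (HDACs), which need zinc, and by sirtuins, which need NAD. Lysine methylation marks active or silent chromatin depending on the residue: H3K4 methylation, placed by the KMT2 and SETD1 enzymes, lies at promoters and enhancers in use, H3K36 methylation by SETD2 follows transcribed genes, and H3K27 methylation by EZH1 and EZH2 and H3K9 methylation by the SETDB enzymes go with silencing. Each of these marks has its demethylases among the KDM genes, which use iron and 2-oxoglutarate or, for Kdm1a and Kdm1b, a flavin. When a naive CD4 cell commits to a helper fate, such marks are known to be laid down or taken away at cytokine and transcription factor genes. Id3 is an inhibitor of E proteins, transcription factors that bind the E-box, CANNTG.

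Promoter sequence was examined because E-boxes are the motif that E proteins read. Entries were found in RefSeq (GRCm38.p6) for 49 of the 60 members, with 68 starts. None was found for Hdac1, Hdac3, Hdac10, Kdm2a, Kdm3b, Kdm4b, Kdm5a, Kdm6b, Kmt2b, Kmt2e and Setd1b. Of the 21 members higher in KO cells of set 5 after the median centring described below, 14 had an entry. In the 250 bases before the start, CANNTG, which reads the same on both strands, occurred in 51.5% of the members' starts, against 58.0% of the starts of all genes of the deposited table and 66.2% of all RefSeq starts. The forms CAGCTG or CAGGTG, searched on both strands and contained in CANNTG, occurred in 19.1% of the members' starts, against 25.6% and 27.7%. The ratio of observed to expected CpG had a median of 0.83 in the members' starts and of 0.71 in those of the deposited genes. Promoters are shown for the member that rose in all sets (Kdm4d), the one whose KO effect differed most between sets (Hdac4) and one that fell (Setdb1), with E-boxes in capitals, 5′ to 3′ on the strand of the gene and ending at the base before the start.
Kdm4d, chr9:14500483-14500616, minus strand, 0 E-boxes, cut short at the first exon of a neighbouring transcript: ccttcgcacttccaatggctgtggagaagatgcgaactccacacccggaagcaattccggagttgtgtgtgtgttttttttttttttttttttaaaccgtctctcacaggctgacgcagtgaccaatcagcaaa
Hdac4, chr1:92180342-92180591, minus strand, 0 E-boxes: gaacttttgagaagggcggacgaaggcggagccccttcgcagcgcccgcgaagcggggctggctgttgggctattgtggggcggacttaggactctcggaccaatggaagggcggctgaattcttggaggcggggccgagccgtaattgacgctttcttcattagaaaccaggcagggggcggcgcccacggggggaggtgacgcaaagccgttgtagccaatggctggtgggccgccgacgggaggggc
Setdb1, chr3:95357203-95357452, minus strand, 2 E-boxes: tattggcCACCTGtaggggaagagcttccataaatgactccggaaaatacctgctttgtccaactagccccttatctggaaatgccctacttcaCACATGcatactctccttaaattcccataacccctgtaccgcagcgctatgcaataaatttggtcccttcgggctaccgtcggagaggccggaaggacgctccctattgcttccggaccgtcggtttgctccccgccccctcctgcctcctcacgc
The E-boxes of the Setdb1 window are CACCTG, 243 bases before the start, and CACATG, 156 bases before it. A match is a description of these windows alone.

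The deposited values were on a log2 scale, and a value of a gene in 1 library is called its level below. Within a group the libraries had nearly the same distribution: after sorting, 97.0 to 98.4% of values were the same in all 3 libraries. Depth is unknown, and the spread within groups may be compressed. Between groups the distributions differed. The median of all genes was higher in KO than in WT cells by 0.39 in set 5 and by 0.41 in set 6, and lower by 0.03 in set 3, on the log2 scale. Each difference is therefore given as deposited and after median centring, which subtracts each library's median. Whether that shift is part of the biology or of the processing cannot be told apart. In bulk RNA, fewer cells of a type and less RNA per cell also cannot be told apart. Id3 itself lay at levels of 1.0 to 5.63 in the 9 KO libraries and 8.85 to 10.08 in the 9 WT libraries. The CD4 T cell markers Cd3e, Cd3g, Cd3d, Cd4 and Cd28 were present in every group, with mean levels of 12.22 to 13.91. In KO cells 4 of these 5 fell in set 3 (summed level 14.48 to 14.73 in KO and 14.99 to 15.08 in WT libraries), while in sets 5 and 6 all 5 were higher as deposited and 2 and 1 after centring. The Th1 cell markers Cxcr3 and Ifng rose in KO cells of set 3 (2 of 4, summed level 14.94 to 15.72 in KO and 14.11 to 14.33 in WT libraries). The other 2 Th1 markers were lower in KO cells of set 3 on both scales and did not pass. Cxcr3 and Il12rb2 fell in set 6 (2 of 4, summed level 15.04 to 16.34 in KO and 15.01 to 15.12 in WT libraries). The other 2 Th1 markers were higher in KO cells of set 6 as deposited, and 1 of them passed. After centring 1 of these 2 was still higher, and 0 passed. Of the Th1 markers in set 5, 1 was higher as deposited and 2 lower after centring. Of the macrophage markers in the table, Cd68 rose in KO cells of set 3 (1 of 3, summed level 6.98 to 7.55 in KO and 6.04 to 6.52 in WT libraries). Both Adgre1 and Cd68 rose in sets 5 and 6 (2 of 3), and Lyz2, the other macrophage marker in the table, rose in neither. The summed level of the 3 was 9.33 to 9.81 in KO and 7.16 to 7.59 in WT libraries of set 5. It was 10.27 to 10.49 in KO and 8.40 to 9.33 in WT libraries of set 6. B cell markers rose in KO cells of set 3 (4 of 5, summed level 7.74 to 10.66 in KO and 5.81 to 7.13 in WT libraries), as did mast cell and basophil markers (3 of 3, 7.80 to 8.22 in KO and 3.11 to 5.33 in WT libraries). As deposited, the summed level of the B cell markers was also higher in KO libraries of set 5 (6.81 to 7.02, against 5.43 to 5.73 in WT libraries). The same held in set 6 (6.30 to 7.10, against 4.78 to 5.86). Zbtb46, the 1 dendritic cell marker in the table, also rose in set 3 (5.82 to 6.59 in KO and 4.05 to 4.73 in WT libraries). CD8 T cell and NK cell markers passed in no set after centring. The part of these cells in the results was not tested.

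In set 3 few of the enzymes passed the test between KO and WT cells, and in sets 5 and 6 most were higher in KO cells as deposited. After median centring 21 members in set 5 and 12 in set 6 were still higher, among them Hdac4, Hdac10, Kdm2a, Kdm6b and Kmt2a, and 7 and 8 were lower, among them Setdb1, Kdm1a and Hdac2. Tests were limma's moderated t on 1 model of all 18 libraries, with Benjamini-Hochberg adjustment over 12547 genes and a threshold of 0.05. In set 3, 1 member was higher in KO cells (Kdm4d) and 2 were lower (Kdm4a and Kdm7a), against 6.92% higher and 4.46% lower of all genes; after centring 1 was higher and 0 lower, against 7.29% and 3.28%. The 2 lower calls depend on single libraries: 11 members were lower without KO library 2 of set 3, and 0 without KO library 1 or without WT library 1. After centring, 2 members were higher and 9 lower without KO library 2 of set 3, and 1 was lower without WT library 2 or WT library 3. At an unadjusted p under 0.05, 23 members differed in set 3 as deposited and 18 after centring, against 27.1% and 25% of all genes. In set 5, 44 members (73.3%) were higher and 1 lower (1.67%), against 50.1% and 8.08% of all genes; after centring 21 were higher (35%) and 7 lower (11.7%), against 24.9% and 24.7%. In set 6, 43 members (71.7%) were higher and 1 lower (1.67%), against 53.9% and 4.59%; after centring 12 were higher (20%) and 8 lower (13.3%), against 18.8% and 18.5%, so that the share higher was close to that of all genes. The centred lower count of set 6 was 4 without KO library 1, 5 without KO library 3, WT library 1 or WT library 2, and 6 without KO library 2 or WT library 3. The median difference of the members was 0.52 in set 5 and 0.49 in set 6 as deposited, against 0.39 and 0.42 over all genes, and 0.13 and 0.07 after centring, against 0.00 and 0.00. No test compares these shares with those of other genes. On both scales 1 rose and 0 fell in set 3, against 6.91% and 3.28% of all genes, 21 and 1 in set 5, against 24.9% and 8.08%, and 12 and 1 in set 6, against 18.8% and 4.59%. Below, rose and fell are used of members that passed in the same direction on both scales.

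**Figure D1:**
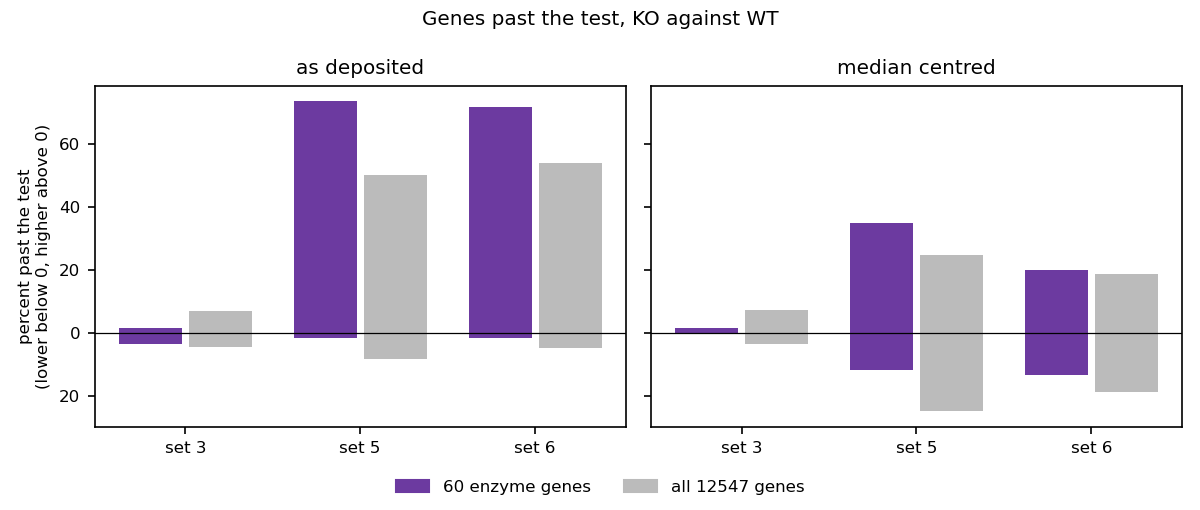
Percent of genes past the test in KO against WT cells, with genes higher in KO cells above 0 and genes lower below 0, for the 60 enzyme genes (purple) and for all 12547 genes (grey), as deposited (left) and median centred (right). In set 5, 73.3% of the enzyme genes and 50.1% of all genes are higher as deposited, and 35% and 24.9% after centring.

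**Figure D2:**
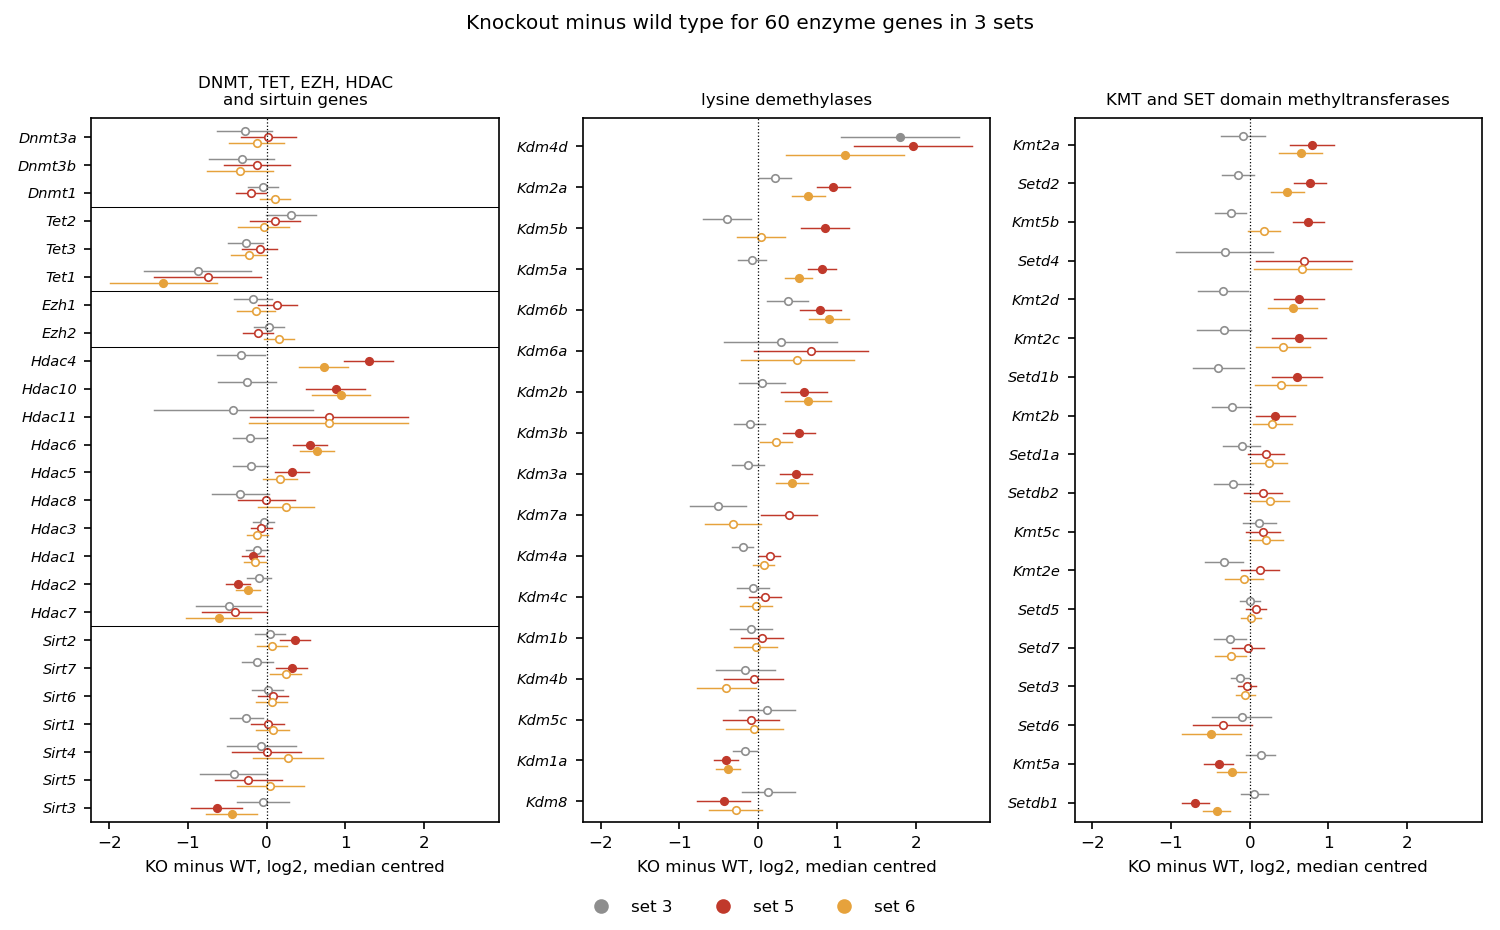
KO minus WT difference in log2 after median centring for each of the 60 genes in sets 3 (grey), 5 (red) and 6 (orange); points are differences of means of 3 libraries, lines are 95% intervals, and filled points passed the test. Kdm4d is filled in all 3 sets, and the filled points of Setdb1, Kdm1a, Hdac2 and Sirt3 lie left of 0.

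The DNA methyltransferases showed no KO against WT difference on both scales in any set. Dnmt1 copies methylation after replication, and its levels were 12.18, 12.14 and 12.28 in KO libraries of set 6, against 11.74, 11.76 and 11.54 in WT libraries. These groups did not overlap, and the difference was 0.52 ± 0.09 as deposited and 0.11 after centring (SE; adjusted p = 0.000118 and 0.363), so the call was lost with centring. In set 5 the difference of Dnmt1 was 0.19 as deposited and -0.20 after centring, and neither passed. Dnmt3a and Dnmt3b set new methylation. Dnmt3a passed as deposited in set 5 (0.41, adjusted p = 0.0426) but lay at 0.02 after centring, and this call was lost when any of 5 of the 6 libraries was left out (highest adjusted p = 0.136). Dnmt3b differed by -0.34, 0.26 and 0.08 as deposited in sets 3, 5 and 6, and none of these passed.

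The TET dioxygenases, which oxidise methylated cytosine, included 1 that fell. Tet1 lay at 4.02, 5.10 and 5.18 in KO libraries of set 3, against 5.77, 5.56 and 5.67 in WT libraries. In the other sets it lay at 5.28, 5.698 and 5.10 in KO libraries of set 5, against 5.90, 5.64 and 5.61 in WT libraries, and at 5.24, 5.86 and 4.86 in KO libraries of set 6, against 6.62, 5.999 and 6.04 in WT libraries. KO values were below WT values without overlap in sets 3 and 6 and overlapped in set 5. The difference passed in set 6, at -0.90 ± 0.32 as deposited and -1.31 after centring (SE; adjusted p = 0.0242 and 0.00452), and not in set 3 (-0.90 as deposited, adjusted p = 0.0829) or set 5 (-0.36, adjusted p = 0.356). As deposited, the set 6 call was lost without KO library 1, KO library 3 or WT library 1 of set 6 (highest adjusted p = 0.115), while after centring it held without any 1 library, with a highest adjusted p of 0.0297. Tet1 was not tested when genes with a mean level under 6 were left out. Tet2 was higher in KO cells as deposited in sets 5 and 6 (0.50 and 0.38, adjusted p = 0.0102 and 0.043) and lay at 0.11 and -0.04 after centring, which did not pass. Tet3 passed as deposited in set 5 alone (0.30, adjusted p = 0.0223). Tet2 lost its call in set 5 as deposited when WT library 1 was left out (highest adjusted p = 0.0607). In set 6 the call of Tet2 as deposited was lost without KO library 1, 2 or 3 or WT library 1 or 2 (highest adjusted p = 0.159). Tet3 lost its call in set 5 as deposited when KO library 3 or WT library 1 or 2 was left out (highest adjusted p = 0.0806).

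Ezh1 and Ezh2, the catalytic subunits of Polycomb repressive complex 2, which methylates H3K27, passed in sets 5 and 6 only as deposited, Ezh1 in set 5 and Ezh2 in both. Ezh2 lay at 12.84, 12.58 and 12.69 in KO libraries of set 6, against 12.18, 12.22 and 12.01 in WT libraries. The groups did not overlap, and the difference of 0.57 ± 0.09 as deposited (SE, adjusted p = 5.8e-05) became 0.16 after centring (adjusted p = 0.189). Ezh1 differed by 0.53 in set 5 as deposited (adjusted p = 0.00098) and by 0.14 after centring. The set 5 call of Ezh2 as deposited was lost without KO library 2 or WT library 3 of that set (highest adjusted p = 0.0614). In set 3 neither gene passed, with differences of -0.20 for Ezh1 and 0.01 for Ezh2 as deposited.

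Of the H3K4 methyltransferases, Kmt2a, Kmt2b, Kmt2c, Kmt2d and Setd1b rose in KO cells of set 5, and Kmt2a and Kmt2d also in set 6, while Setd1a and Setd7 passed in no set after centring. Kmt2a (MLL1), which keeps developmental genes active, lay at 9.004, 9.24 and 9.22 in KO libraries of set 3, against 9.20, 9.32 and 9.29 in WT libraries. It also lay at 10.00, 9.94 and 10.00 in KO libraries of set 5, against 8.71, 8.79 and 8.91 in WT libraries, and at 9.90, 9.67 and 10.10 in KO libraries of set 6, against 8.65, 8.69 and 9.16 in WT libraries. The groups overlapped in set 3 and were apart in sets 5 and 6. Kmt2a rose in set 5, by 1.18 ± 0.13 as deposited and 0.79 after centring (SE; adjusted p = 1.51e-06 and 0.000151), and in set 6, by 1.06 ± 0.13 as deposited and 0.65 after centring (SE; adjusted p = 5.64e-06 and 0.00125). Kmt2c and Kmt2d place H3K4 monomethylation at enhancers. Kmt2d lay at 10.23, 10.27 and 10.57 in KO libraries of set 5, against 9.07, 9.45 and 9.51 in WT libraries, and at 10.06, 10.06 and 10.34 in KO libraries of set 6, against 9.06, 9.39 and 9.14 in WT libraries. All KO values were above all WT values in both sets, and Kmt2d rose by 1.02 ± 0.15 as deposited and 0.63 after centring (SE; adjusted p = 2.2e-05 and 0.00235) in set 5 and by 0.96 ± 0.15 as deposited and 0.55 after centring (SE; adjusted p = 4.38e-05 and 0.00843) in set 6. In set 3 every KO value of Kmt2d was below every WT value, with a difference of -0.37 that did not pass (adjusted p = 0.124). Kmt2c lay at 10.47, 10.51 and 10.64 in KO libraries of set 5, against 9.34, 9.62 and 9.61 in WT libraries, which did not overlap. It rose in set 5, by 1.02 ± 0.16 as deposited and 0.63 after centring (SE; adjusted p = 5.89e-05 and 0.00471), and in set 6 its difference of 0.84 as deposited passed (adjusted p = 0.000378) while the centred 0.43 did not (adjusted p = 0.0511).

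Setd1b, with Setd1a the source of most H3K4 trimethylation at promoters, lay at 9.03, 9.07 and 9.34 in KO libraries of set 5, against 8.08, 8.17 and 8.22 in WT libraries, without overlap. Setd1b rose in set 5, by 0.99 ± 0.15 as deposited and 0.60 after centring (SE; adjusted p = 3.68e-05 and 0.0038), and differed by 0.81 and 0.39 on the same scales in set 6 (adjusted p = 0.000279 and 0.0522). Kmt2b (MLL2), which acts at promoters rich in CpG, lay at 10.21, 10.47 and 10.50 in KO libraries of set 5, against 9.46, 9.71 and 9.85 in WT libraries. These groups were apart, and Kmt2b rose by 0.72 ± 0.12 as deposited and 0.33 after centring (SE; adjusted p = 6.71e-05 and 0.0286), but the centred call was lost without KO library 2 or 3 or WT library 1 of set 5 (highest adjusted p = 0.155). Setd1a and Kmt2e passed as higher in KO cells of sets 5 and 6 as deposited, with differences of 0.60 and 0.66 for Setd1a and 0.52 and 0.34 for Kmt2e, and did not pass after centring (0.21 and 0.24, and 0.13 and -0.08). In set 6 the call of Kmt2e as deposited was lost without KO library 3 or WT library 1 (highest adjusted p = 0.0863).

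Setd2, the enzyme of H3K36 trimethylation, rose in sets 5 and 6. Its levels were 9.95, 10.09 and 10.03 in KO libraries of set 3, against 10.25, 10.20 and 10.16 in WT libraries. They were 11.81, 11.78 and 12.002 in KO libraries of set 5, against 10.71, 10.78 and 10.65 in WT libraries, and 11.61, 11.33 and 11.71 in KO libraries of set 6, against 10.52, 10.65 and 10.81 in WT libraries. KO values lay below WT values in set 3 and above them in sets 5 and 6, without overlap in any set. The difference was -0.18 in set 3, which did not pass (adjusted p = 0.244), 1.15 ± 0.10 as deposited and 0.76 after centring (SE; adjusted p = 9.5e-08 and 1.31e-05) in set 5, and 0.89 ± 0.10 as deposited and 0.48 after centring (SE; adjusted p = 1.48e-06 and 0.00115) in set 6. Of the H4K20 methyltransferases, Kmt5a sets the first methyl group, and Kmt5b and Kmt5c add further ones. Kmt5b lay at 11.58, 11.54 and 11.86 in KO libraries of set 5, against 10.40, 10.61 and 10.57 in WT libraries, with no overlap, and rose by 1.14 ± 0.09 as deposited and 0.75 after centring (SE; adjusted p = 9.12e-08 and 1.33e-05). In set 6 Kmt5b differed by 0.59 as deposited (adjusted p = 6.26e-05) and by 0.18 after centring (adjusted p = 0.152). Kmt5a lay at 11.57, 11.84 and 11.58 in KO libraries of set 5, against 11.68, 11.72 and 11.60 in WT libraries, with overlap. Its difference was -0.01 as deposited (adjusted p = 0.953) and -0.40 after centring (adjusted p = 0.00114), so it was called lower relative to the median only. Kmt5a was also called lower in set 6 after centring alone. That call was lost without KO library 1, 2 or 3 or WT library 1 or 2 of set 6 (highest adjusted p = 0.155). Kmt5c was higher as deposited in sets 5 and 6 (0.55 and 0.62) and not after centring (0.17 and 0.20).

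Setdb1, which trimethylates H3K9 and silences endogenous retroviruses, was the 1 methyltransferase that fell. It lay at 10.15, 10.33 and 10.25 in KO libraries of set 3, against 10.19, 10.28 and 10.17 in WT libraries. The levels in the other sets were 9.53, 9.74 and 9.71 in KO libraries of set 5, against 10.04, 9.93 and 9.92 in WT libraries, and 9.66, 9.82 and 9.83 in KO libraries of set 6, against 9.86, 9.74 and 9.74 in WT libraries. KO values were below WT values without overlap in set 5, and the groups overlapped in sets 3 and 6. Setdb1 fell in set 5, with a difference of -0.30 ± 0.08 as deposited and -0.69 after centring (SE; adjusted p = 0.0044 and 6.88e-06). In set 6 its difference was -0.01 ± 0.08 as deposited and -0.42 after centring (SE; adjusted p = 0.945 and 0.000872), a call made after centring alone. Its relative Setdb2 differed the other way as deposited, by 0.56 in set 5 and 0.67 in set 6 (adjusted p = 0.000537 and 0.000111), and did not pass after centring (0.17 and 0.26). Of the other SET domain genes, Setd3, an actin histidine methyltransferase, and Setd5 were higher as deposited in sets 5 and 6 (0.36 and 0.36 for Setd3, 0.47 and 0.43 for Setd5) and lay between -0.05 and 0.08 after centring. Setd4 was higher as deposited by 1.08 and 1.08, and its centred 0.69 and 0.67 missed the threshold (adjusted p = 0.0581 and 0.0795), with WT levels of set 6 from 7.20 to 8.61. Setd6, which methylates the NF-kB subunit RelA, was called lower after centring in set 6 alone (-0.49, adjusted p = 0.04), and Setd7, an H3K4 monomethyltransferase with many substrates outside histones, was higher as deposited in set 5 alone (0.37, adjusted p = 0.00313). Setd6 lost its call in set 6 after centring when KO library 1 or 2 or WT library 1 or 2 was left out (highest adjusted p = 0.157).

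**Figure D3:**
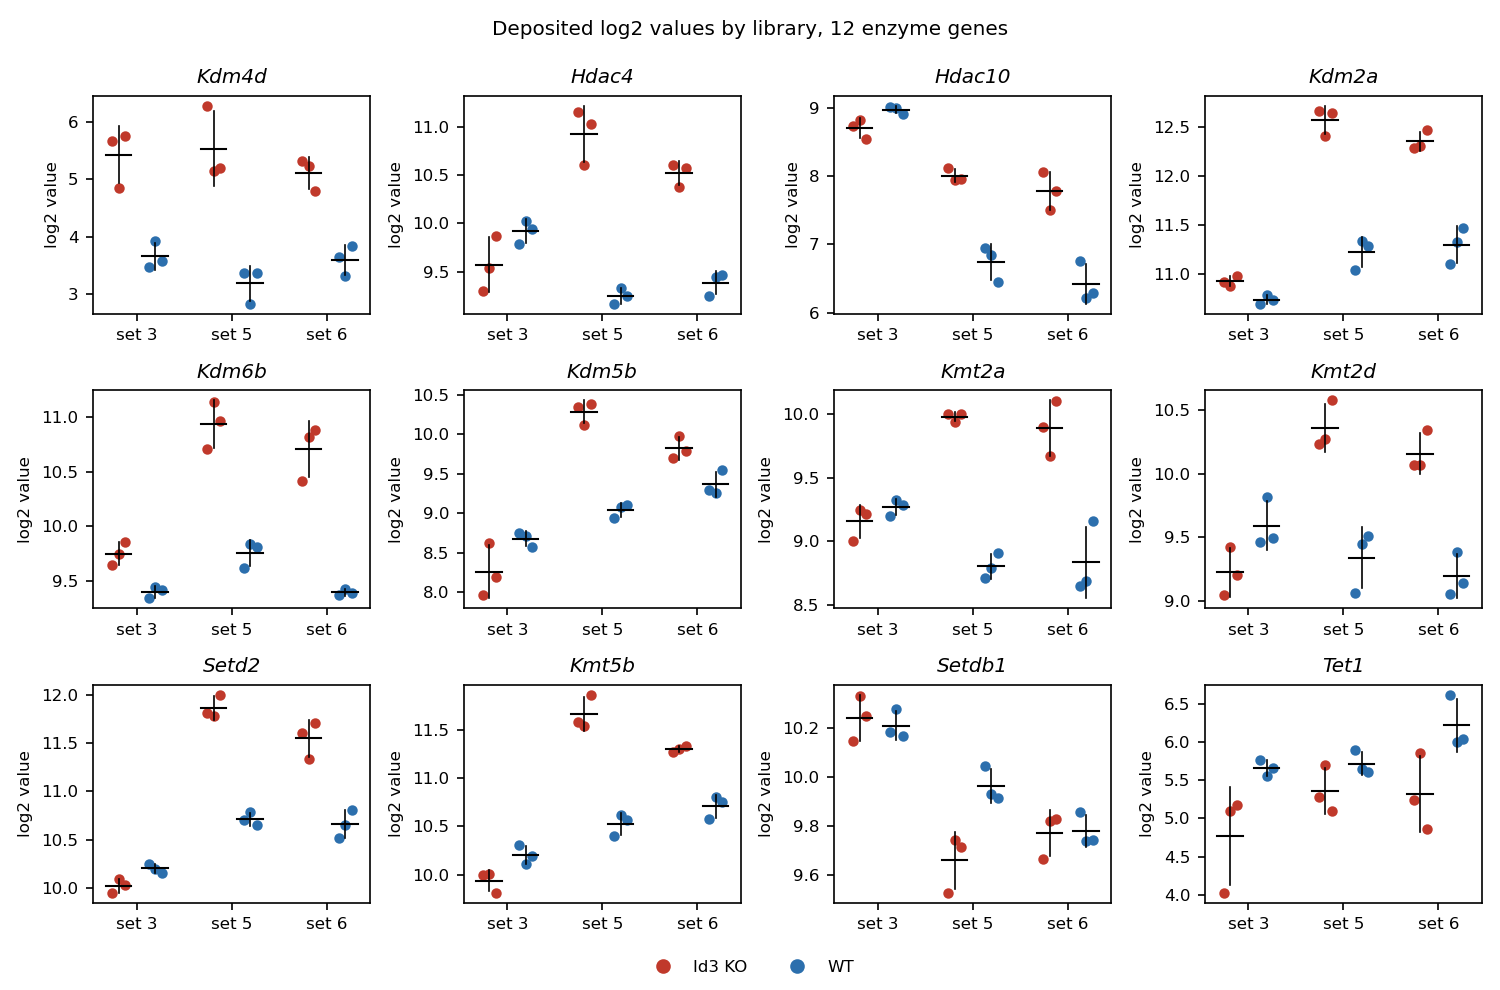
Deposited log2 level of 12 enzyme genes in each library of sets 3, 5 and 6, Id3 KO in red and WT in blue; horizontal lines are group means and vertical lines the SD of 3 libraries. Kdm4d is higher in every KO library than in every WT library of its set, while the KO means of Hdac4, Hdac10 and Setd2 lie below the WT means in set 3 and above them in sets 5 and 6.

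Among the lysine demethylases Kdm4d, an H3K9 demethylase best known from the testis, was the 1 member that rose in KO cells of all 3 sets. Its levels were 5.67, 4.86 and 5.77 in KO libraries of set 3, against 3.47, 3.92 and 3.58 in WT libraries. They were 6.29, 5.14 and 5.19 in KO libraries of set 5, against 3.36, 2.82 and 3.36 in WT libraries, and 5.32, 5.23 and 4.80 in KO libraries of set 6, against 3.64, 3.32 and 3.83 in WT libraries. No KO value overlapped a WT value in any set. The difference was 1.77 ± 0.35 as deposited and 1.80 after centring (SE; adjusted p = 0.004 and 0.00358) in set 3, 2.36 ± 0.35 as deposited and 1.97 after centring (SE; adjusted p = 2.92e-05 and 0.000276) in set 5, and 1.52 ± 0.35 as deposited and 1.11 after centring (SE; adjusted p = 0.00158 and 0.0216) in set 6. The centred call of set 6 was lost without KO library 1, KO library 2, WT library 1 or WT library 2 of that set (highest adjusted p = 0.0776), and Kdm4d was not tested when genes with a mean level under 6 were left out. The handling of reads shared by similar KDM4 genes was not stated.

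The other KDM4 genes, which act on H3K9 and H3K36, passed in no set after centring. Kdm4a was lower in KO cells of set 3, at 9.32, 9.37 and 9.34 in KO libraries of set 3, against 9.62, 9.54 and 9.53 in WT libraries. The groups did not overlap, and the difference of -0.22 passed as deposited (adjusted p = 0.0304) and not after centring (-0.20, adjusted p = 0.0547). Kdm4a and Kdm4c were higher as deposited in sets 5 (0.53 and 0.48) and 6 (0.48 and 0.39) but not after centring, and Kdm4b passed in no set. In set 3 the call of Kdm4a as deposited was lost without KO library 1 or 3 or WT library 1 or 2 (highest adjusted p = 0.119).

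Of the H3K27 demethylases, Kdm6b (JMJD3), known from the control of T helper differentiation, rose in sets 5 and 6. It lay at 9.65, 9.75 and 9.86 in KO libraries of set 3, against 9.34, 9.45 and 9.42 in WT libraries. The levels in the other sets were 10.71, 11.14 and 10.97 in KO libraries of set 5, against 9.62, 9.84 and 9.81 in WT libraries, and 10.42, 10.82 and 10.89 in KO libraries of set 6, against 9.37, 9.43 and 9.39 in WT libraries. KO values were above WT values without overlap in all 3 sets. Kdm6b differed by 0.35 ± 0.12 as deposited and 0.38 after centring (SE; adjusted p = 0.0754 and 0.0596) in set 3, which missed the threshold on both scales, by 1.18 ± 0.12 as deposited and 0.79 after centring (SE; adjusted p = 6.44e-07 and 7.02e-05) in set 5, and by 1.31 ± 0.12 as deposited and 0.90 after centring (SE; adjusted p = 3.72e-07 and 4.9e-05) in set 6. Kdm7a, which removes methyl groups from H3K9 and H3K27, was lower as deposited in set 3 (-0.54, adjusted p = 0.0488) and higher in set 5 (0.78, adjusted p = 0.000811), and passed in neither set after centring (-0.51 and 0.39, adjusted p = 0.0629 and 0.0636). Kdm7a lost its call in set 3 as deposited when KO library 1 or 3 or WT library 1 or 3 was left out (highest adjusted p = 0.23).

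The H3K36 demethylases Kdm2a and Kdm2b, which bind unmethylated CpG, both rose in sets 5 and 6. Kdm2a lay at 10.92, 10.89 and 10.99 in KO libraries of set 3, against 10.70, 10.79 and 10.74 in WT libraries. The values of the other sets were 12.66, 12.41 and 12.64 in KO libraries of set 5, against 11.05, 11.34 and 11.29 in WT libraries, and 12.29, 12.31 and 12.46 in KO libraries of set 6, against 11.10, 11.33 and 11.47 in WT libraries. KO and WT values were apart in each set, and Kdm2a rose by 1.34 ± 0.10 as deposited and 0.95 after centring (SE; adjusted p = 3.02e-08 and 2.2e-06) in set 5 and by 1.05 ± 0.10 as deposited and 0.64 after centring (SE; adjusted p = 3.93e-07 and 0.000141) in set 6, while its 0.19 in set 3 did not pass (adjusted p = 0.233). Kdm2b, which also recruits Polycomb repressive complex 1, lay at 10.61, 11.01 and 10.55 in KO libraries of set 5, against 9.60, 9.82 and 9.82 in WT libraries, and at 10.65, 10.80 and 10.98 in KO libraries of set 6, against 9.74, 9.71 and 9.87 in WT libraries. The groups were apart in both sets and overlapped in set 3. Kdm2b rose by 0.98 ± 0.14 as deposited and 0.59 after centring (SE; adjusted p = 1.6e-05 and 0.00227) in set 5 and by 1.04 ± 0.14 as deposited and 0.63 after centring (SE; adjusted p = 1.02e-05 and 0.00207) in set 6.

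The H3K4 demethylases split. Kdm5a and Kdm5b, which remove di- and trimethylation, rose. Kdm5a lay at 12.01, 11.97 and 12.06 in KO libraries of set 5, against 10.65, 10.88 and 10.92 in WT libraries, and at 11.82, 11.80 and 11.97 in KO libraries of set 6, against 10.81, 11.00 and 11.00 in WT libraries. These groups were apart, and Kdm5a rose by 1.196 ± 0.08 as deposited and 0.81 after centring (SE; adjusted p = 2.21e-08 and 2.35e-06) in set 5 and by 0.93 ± 0.08 as deposited and 0.51 after centring (SE; adjusted p = 2.99e-07 and 0.000232) in set 6. Kdm5b lay at 7.97, 8.63 and 8.19 in KO libraries of set 3, against 8.75, 8.71 and 8.57 in WT libraries. In the other sets it lay at 10.35, 10.12 and 10.39 in KO libraries of set 5, against 8.94, 9.08 and 9.11 in WT libraries, and at 9.70, 9.98 and 9.79 in KO libraries of set 6, against 9.30, 9.26 and 9.55 in WT libraries. Kdm5b overlapped in set 3 and was apart in sets 5 and 6. Its rise in set 5 was 1.24 ± 0.14 as deposited and 0.85 after centring (SE; adjusted p = 2.1e-06 and 0.00016), while in set 6 a difference of 0.45 (adjusted p = 0.0129) became 0.04 after centring (adjusted p = 0.856). Kdm1a (LSD1), the flavin enzyme that removes mono- and dimethylation, lay at 10.64, 10.76 and 10.66 in KO libraries of set 5, against 10.68, 10.72 and 10.72 in WT libraries. Its groups overlapped, with a difference of -0.02 as deposited (adjusted p = 0.834) and -0.41 after centring (adjusted p = 0.00024), and in set 6 of 0.02 and -0.39 (adjusted p = 0.794 and 0.00063), so that it was lower only relative to the median. Kdm1b passed as higher as deposited in sets 5 and 6 (0.44 and 0.38) and lay at 0.05 and -0.03 after centring. In set 6 the call of Kdm5b as deposited was lost without KO library 2 or WT library 2 (highest adjusted p = 0.0593). Kdm1b lost its call in set 6 as deposited when KO library 3 or WT library 2 was left out (highest adjusted p = 0.0743).

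The H3K9 demethylases Kdm3a and Kdm3b rose in set 5. Kdm3a lay at 11.83, 11.56 and 11.69 in KO libraries of set 5, against 10.74, 10.81 and 10.91 in WT libraries, and at 11.78, 11.49 and 11.72 in KO libraries of set 6, against 10.75, 10.79 and 10.93 in WT libraries. It was apart in both sets and rose by 0.87 ± 0.09 as deposited and 0.48 after centring (SE; adjusted p = 1.14e-06 and 0.000587) in set 5 and by 0.84 ± 0.09 as deposited and 0.43 after centring (SE; adjusted p = 2.28e-06 and 0.00235) in set 6. Kdm3b lay at 10.50, 10.36 and 10.51 in KO libraries of set 5, against 9.50, 9.57 and 9.56 in WT libraries, without overlap, and rose by 0.91 ± 0.09 as deposited and 0.52 after centring (SE; adjusted p = 7.33e-07 and 0.000309). In set 6 the difference of Kdm3b was 0.64 as deposited (adjusted p = 3.16e-05) and 0.23 after centring (adjusted p = 0.0726). Kdm8 was lower in set 5 after centring alone (-0.44, adjusted p = 0.0312). In set 5 the call of Kdm8 after centring was lost without KO library 1 or 2 or WT library 1 (highest adjusted p = 0.162).

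Of the class II deacetylases among the members, Hdac4, Hdac6 and Hdac10 rose in sets 5 and 6 and Hdac5 in set 5 alone. Hdac7 and the class I deacetylases rose in no set, though most class I genes were higher as deposited. Hdac4, a class IIa enzyme that shuttles between cytoplasm and nucleus and represses MEF2 targets, lay at 9.30, 9.53 and 9.87 in KO libraries of set 3, against 9.78, 10.03 and 9.94 in WT libraries. The levels in the other sets were 11.16, 10.60 and 11.03 in KO libraries of set 5, against 9.17, 9.33 and 9.24 in WT libraries, and 10.61, 10.38 and 10.58 in KO libraries of set 6, against 9.25, 9.44 and 9.46 in WT libraries. The groups overlapped in set 3 and stood apart in sets 5 and 6. Hdac4 differed by -0.35 ± 0.15 as deposited and -0.32 after centring (SE; adjusted p = 0.136 and 0.178) in set 3, rose by 1.69 ± 0.15 as deposited and 1.30 after centring (SE; adjusted p = 1.27e-07 and 4.87e-06) in set 5 and by 1.14 ± 0.15 as deposited and 0.72 after centring (SE; adjusted p = 7.55e-06 and 0.00113) in set 6. Hdac5, its close relative, lay at 10.69, 10.80 and 10.57 in KO libraries of set 5, against 10.07, 9.86 and 10.00 in WT libraries. Hdac5 rose by 0.71 ± 0.10 as deposited and 0.32 after centring (SE; adjusted p = 2.08e-05 and 0.0162) in set 5, where the centred call was lost without KO library 2 or WT library 2 (highest adjusted p = 0.0754). In set 6 Hdac5 differed by 0.58 and 0.17 on the same scales (adjusted p = 0.000148 and 0.204). Hdac7, best known from thymocytes among T cells, lay at 11.47, 11.92 and 11.26 in KO libraries of set 6, against 11.66, 11.74 and 11.83 in WT libraries. Its groups overlapped, and it was called lower in set 6 after centring alone (-0.61, adjusted p = 0.0225), with -0.19 as deposited (adjusted p = 0.409). Hdac7 lost its call in set 6 after centring when KO library 1 or 3 or WT library 2 or 3 was left out (highest adjusted p = 0.114).

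Hdac10, a class IIb enzyme that deacetylates polyamines, lay at 8.74, 8.82 and 8.54 in KO libraries of set 3, against 9.01, 8.999 and 8.91 in WT libraries. Its levels were 8.11, 7.95 and 7.96 in KO libraries of set 5, against 6.94, 6.84 and 6.44 in WT libraries, and 8.06, 7.50 and 7.78 in KO libraries of set 6, against 6.75, 6.21 and 6.29 in WT libraries. All KO values were below all WT values in set 3 and above them in sets 5 and 6. Hdac10 rose by 1.27 ± 0.18 as deposited and 0.88 after centring (SE; adjusted p = 1.34e-05 and 0.000677) in set 5 and by 1.36 ± 0.18 as deposited and 0.94 after centring (SE; adjusted p = 8.33e-06 and 0.000635) in set 6, and its -0.27 in set 3 did not pass (adjusted p = 0.332). Hdac6, the tubulin deacetylase, lay at 10.24, 10.37 and 10.40 in KO libraries of set 5, against 9.33, 9.42 and 9.44 in WT libraries, and at 10.10, 10.18 and 10.56 in KO libraries of set 6, against 9.32, 9.21 and 9.15 in WT libraries. These groups were apart, and Hdac6 rose by 0.94 ± 0.10 as deposited and 0.55 after centring (SE; adjusted p = 1.2e-06 and 0.000382) in set 5 and by 1.05 ± 0.10 as deposited and 0.64 after centring (SE; adjusted p = 6.25e-07 and 0.000223) in set 6. Of the class I enzymes, the nuclear core of most corepressor complexes, Hdac1, Hdac2 and Hdac3 differed by 0.22, 0.02 and 0.32 in set 5 and by 0.27, 0.17 and 0.29 in set 6 as deposited. After centring these differences were -0.17, -0.37 and -0.07 in set 5 and -0.14, -0.24 and -0.12 in set 6. As deposited all of these passed as higher except Hdac2 in set 5. Hdac2 passed as lower after centring in both sets (adjusted p = 0.000587 and 0.0153), Hdac1 in set 5 alone (adjusted p = 0.0428), and Hdac3 in neither. Hdac8 was higher as deposited in set 6 alone (0.66, adjusted p = 0.00345). Hdac11, the class IV enzyme, lay at levels of 1.5 to 4.21 over all libraries and was higher as deposited in sets 5 and 6 (1.18 and 1.201, adjusted p = 0.0429 and 0.0401), and its centred 0.79 and 0.79 did not pass. In set 5 the call of Hdac1 as deposited was lost without KO library 1 (highest adjusted p = 0.0507). Hdac1 lost its call in set 5 after centring when KO library 3 or WT library 1, 2 or 3 was left out (highest adjusted p = 0.181). In set 6 the call of Hdac2 as deposited was lost without KO library 1, 2 or 3 or WT library 2 or 3 (highest adjusted p = 0.164). Hdac2 lost its call in set 6 after centring when KO library 3 or WT library 1 was left out (highest adjusted p = 0.0642). In set 5 the call of Hdac11 as deposited was lost without KO library 1 or 3 or WT library 2 or 3 (highest adjusted p = 0.149). Hdac11 lost its call in set 6 as deposited when KO library 1, 2 or 3 or WT library 1 or 2 was left out (highest adjusted p = 0.183).

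Of the sirtuins, Sirt2 and Sirt7 rose in set 5. Sirt2, which is mainly cytoplasmic and deacetylates tubulin, lay at 12.02, 11.86 and 12.18 in KO libraries of set 5, against 11.22, 11.27 and 11.32 in WT libraries, and Sirt7, a nucleolar enzyme, at 12.02, 11.82 and 12.11 in KO libraries of set 5, against 11.26, 11.31 and 11.26 in WT libraries. Neither gene overlapped between groups. Sirt2 rose by 0.75 ± 0.09 as deposited and 0.36 after centring (SE; adjusted p = 2.77e-06 and 0.00319). Sirt7 rose by 0.71 ± 0.09 as deposited and 0.32 after centring (SE; adjusted p = 8.53e-06 and 0.01), and its centred call was lost without KO library 3 of set 5 (adjusted p = 0.0545). In set 6 both passed as deposited (0.48 and 0.66) and not after centring (0.07 and 0.24, adjusted p = 0.589 and 0.0515). Sirt3, the main deacetylase of mitochondria, lay at 7.77, 7.68 and 8.0 in KO libraries of set 5, against 7.87, 8.11 and 8.20 in WT libraries, with overlap. Its difference was -0.24 as deposited (adjusted p = 0.186) and -0.63 after centring (adjusted p = 0.00296), and in set 6 -0.03 and -0.45 (adjusted p = 0.871 and 0.0324). The nuclear enzymes Sirt1 and Sirt6 were higher as deposited in sets 5 and 6, by 0.40 and 0.49 for Sirt1 and by 0.47 and 0.48 for Sirt6, and lay at 0.01 to 0.08 and 0.06 to 0.08 after centring. Of the mitochondrial Sirt4 and Sirt5, Sirt4 passed as deposited in set 6 (0.68, adjusted p = 0.0103) and Sirt5 in no set. In set 6 the call of Sirt3 after centring was lost without KO library 1 or 2 or WT library 1 or 3 (highest adjusted p = 0.11). Sirt4 lost its call in set 6 as deposited when KO library 1 was left out (highest adjusted p = 0.0703).

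For Kdm6a and Kdm5c, X-linked demethylases of H3K27 and H3K4 that are known to be expressed from both X chromosomes in female mice, 1 WT library of each set stood apart. This was chosen for description after the values were seen. Kdm6a lay at 10.83, 10.47 and 10.85 in KO libraries of set 3, against 9.92, 10.65 and 10.81 in WT libraries. The other sets gave 11.64, 11.66 and 11.76 in KO libraries of set 5, against 9.79, 10.99 and 11.09 in WT libraries, and 11.31, 11.66 and 11.72 in KO libraries of set 6, against 9.82, 11.03 and 11.10 in WT libraries. WT library 1 was the lowest of its group each time, and lay -0.81, -1.25 and -1.24 from the mean of WT libraries 2 and 3 in sets 3, 5 and 6. The same difference was -0.53, -0.49 and -0.52 for Kdm5c, and -0.59, -0.52 and -0.50 for Eif2s3x, a further X-linked gene. For Ddx3x, which is also X-linked, it was 0.15, -0.01 and 0.07, so not every X-linked gene shown was low in WT library 1. As deposited Kdm6a was higher in KO cells by 1.06 in set 5 and 0.91 in set 6 (adjusted p = 0.0136 and 0.0306). In set 5 the call of Kdm6a as deposited was lost without WT library 1 (highest adjusted p = 0.0943). Kdm6a lost its call in set 6 as deposited when KO library 2 or 3 or WT library 1 was left out (highest adjusted p = 0.192). Without WT library 1 of all sets its differences were 0.65 and 0.50 (adjusted p = 0.0011 and 0.00631), and 0.26 and 0.08 after centring, which did not pass. Kdm5c passed in no set, with or without these libraries. The cause of the low values was not tested. Without these 3 libraries the members higher and lower after centring numbered 20 and 5 in set 5, and 11 and 4 in set 6.

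**Figure D4:**
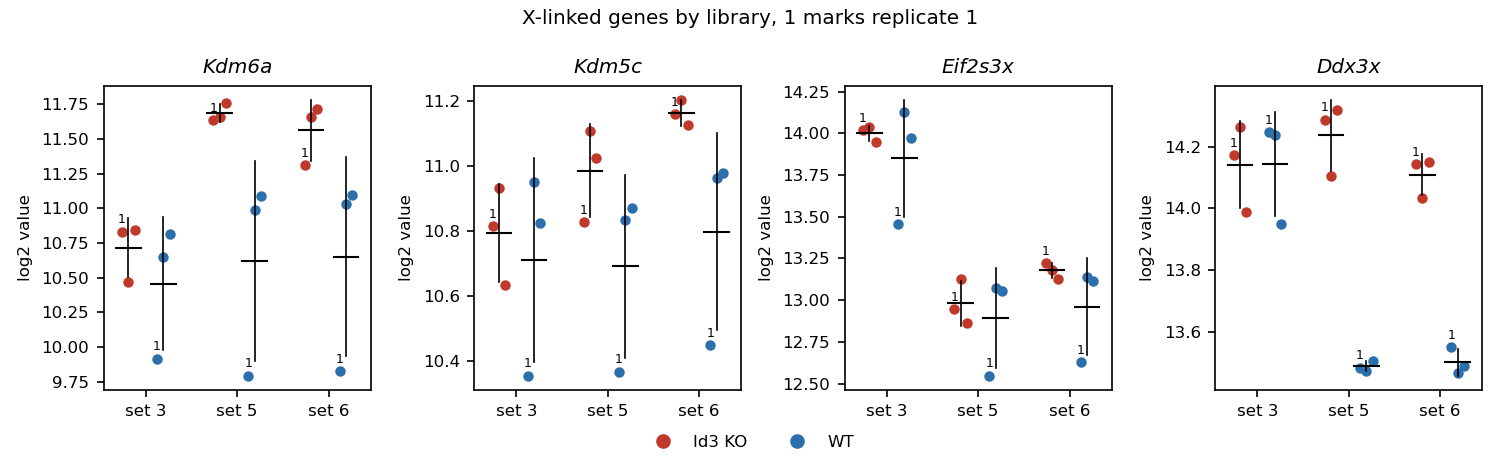
Deposited log2 level of the X-linked genes Kdm6a, Kdm5c, Eif2s3x and Ddx3x in each library of sets 3, 5 and 6, Id3 KO in red and WT in blue, with the digit 1 at replicate 1; lines are group means and SD of 3 libraries. WT replicate 1 is the lowest WT library of each set for Kdm6a, Kdm5c and Eif2s3x.

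How the enzymes differed between sets was compared within each genotype. The model takes all libraries as independent. Same-numbered WT libraries of set 3 deviated together with those of sets 5 and 6, though less than sets 5 and 6 did with each other. Of the members 49 passed in KO cells, against 73.2% of all genes, and 40 in WT cells, against 67.6%. In KO cells 37 members were higher in set 5 than in set 3 and 12 were lower, against 49.8% and 23.4% of all genes; after centring 30 were higher and 17 lower, against 35.6% and 35.7%. In WT cells 20 members were higher and 20 lower, against 29.3% and 38.3% of all genes; after centring 22 and 20, against 30.5% and 36.8%. Tet2, a dioxygenase often mutated in human T cell lymphoma, was higher in set 5 in both genotypes, by 1.65 ± 0.15 as deposited and 1.27 after centring (SE; adjusted p = 5.2e-08 and 1.3e-06) in KO cells and 1.44 ± 0.15 as deposited and 1.48 after centring (SE; adjusted p = 4e-07 and 3.11e-07) in WT cells. Dnmt3b was lower in both, at -0.85 in KO and -1.46 in WT cells as deposited (adjusted p = 0.00101 and 6.63e-06). So were Setd6, at -1.19 in KO and -1.36 in WT cells, and Ezh2, at -0.29 in KO and -0.57 in WT cells, all past the test on both scales.

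Hdac4 and Kmt2a moved in opposite directions in the genotypes on both scales. Hdac4 was higher in set 5 than in set 3 in KO cells, by 1.36 ± 0.15 as deposited and 0.98 after centring (SE; adjusted p = 3.25e-07 and 1.53e-05), and lower in WT cells, at -0.67 ± 0.15 as deposited and -0.64 after centring (SE; adjusted p = 0.000653 and 0.001). Kmt2a was likewise higher in KO cells, by 0.82 ± 0.13 as deposited and 0.44 after centring (SE; adjusted p = 2.93e-05 and 0.00661), and lower in WT cells, at -0.47 ± 0.13 as deposited and -0.43 after centring (SE; adjusted p = 0.00506 and 0.00826). Hdac10 was lower in set 5 in both, at -0.69 ± 0.18 as deposited and -1.07 after centring (SE; adjusted p = 0.00202 and 4.06e-05) in KO cells and -2.23 ± 0.18 as deposited and -2.20 after centring (SE; adjusted p = 1.49e-08 and 1.76e-08) in WT cells. Kdm5b was the member with the largest difference in KO cells, at 2.02 ± 0.14 as deposited and 1.64 after centring (SE; adjusted p = 2.67e-09 and 3.61e-08), against 0.36 ± 0.14 as deposited and 0.40 after centring (SE; adjusted p = 0.034 and 0.0224) in WT cells.

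**Figure D5:**
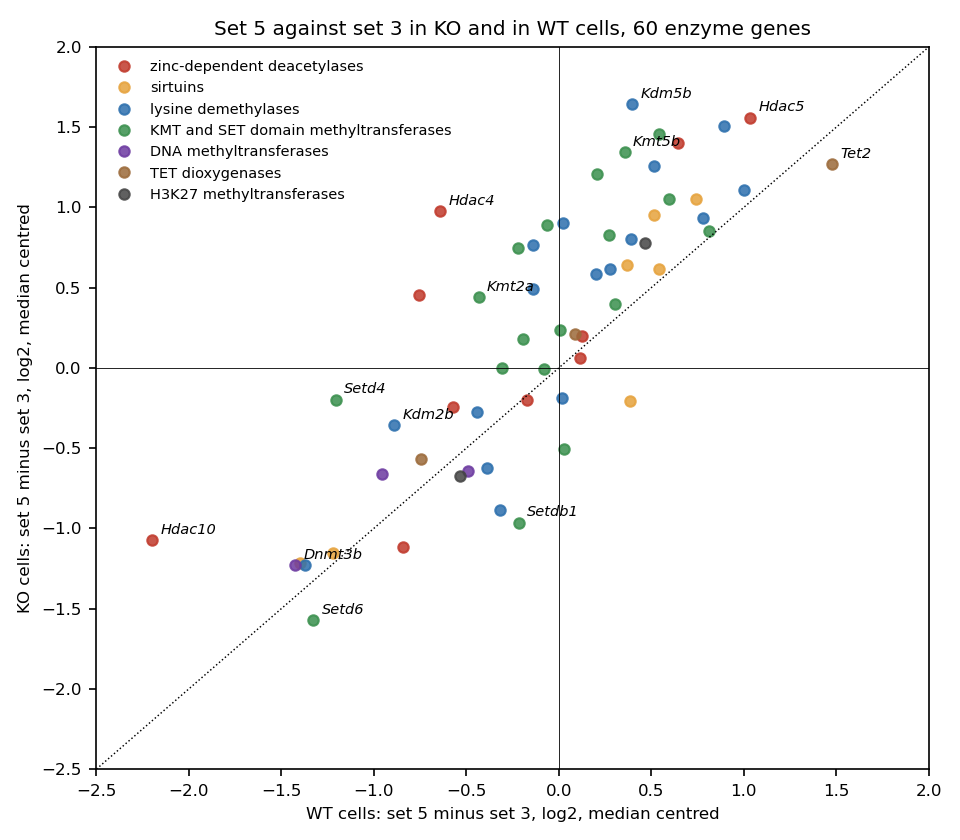
Set 5 minus set 3 difference in log2 after median centring, in KO cells (vertical axis) and WT cells (horizontal axis), for the 60 enzyme genes coloured by family; the dotted line marks equal differences. Most members lie above the line, and Hdac4 and Kmt2a lie in the upper left corner, higher in set 5 in KO cells and lower in WT cells.

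With all libraries taken as independent, few of the enzymes passed the test between set 6 and set 5. In KO cells 0 members were higher and 5 lower in set 6 as deposited (Kdm7a, Kdm5b, Hdac5, Kmt5b and Setd2), against 9.93% and 2.03% of all genes (12% in either direction). After centring 0 were higher and these and Hdac4 lower, against 3.87% and 3.64%. Kdm7a differed most, with 8.64, 8.64 and 8.54 in KO libraries of set 6 and 9.46, 9.15 and 9.36 in KO libraries of set 5, at -0.72 ± 0.17 as deposited and -0.82 after centring (SE; adjusted p = 0.0133 and 0.0105). As deposited, 1 member passed without KO library 3 of set 5, KO library 1 of set 6 or KO library 2 of set 6, and 2 passed without KO library 1 of set 5. In WT cells 1 member was higher, Sirt2 (0.39, adjusted p = 0.026), and 0 lower, against 3.01% and 0.359% of all genes (3.37% in either direction), and after centring 0 were higher and 0 lower, against 1.49% and 0.566%. At an unadjusted p under 0.05, 14 members differed in KO cells and 9 in WT cells, against 27.9% and 17.9% of all genes. Libraries of sets 5 and 6 with the same number deviated together within a genotype. With the replicate number as a block within genotype, 15 members differed in KO cells and 7 in WT cells, against 29.7% and 14.9% of all genes in either direction. After centring these counts were 18 and 8, against 24.8% and 12.8% in either direction.

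The KO against WT difference itself was tested between sets, in the main model that takes all libraries as independent. Averaged over sets 5 and 6 it exceeded that of set 3 for 46 members and was below it for 0, against 49.1% and 6.39% of all genes (55.5% in either direction). After centring it was larger for 23 members and smaller for 3, against 19.6% and 18.5%. The 23 larger ones also passed as deposited. Hdac4 stood first, at 1.76 ± 0.18 as deposited and 1.33 after centring (SE; adjusted p = 1.27e-06 and 6.53e-05), then Hdac10, at 1.58 ± 0.21 as deposited and 1.16 after centring (SE; adjusted p = 1.57e-05 and 0.000688). Among the methyltransferases Setd4 was highest after centring, at 1.0, but this centred call was lost in 8 of the 18 fits without 1 library. Kmt2d came next after centring, at 1.35 ± 0.18 as deposited and 0.93 after centring (SE; adjusted p = 1.39e-05 and 0.000986). Among the demethylases Kdm5b stood at 1.27 ± 0.18 as deposited and 0.84 after centring (SE; adjusted p = 1.97e-05 and 0.00167). By family the 23 were 9 of 18 KMT and SET domain genes, 9 of 17 demethylases, 4 of 10 zinc-dependent deacetylases and 1 of 7 sirtuins, with 0 of the DNA methyltransferases, TET and EZH genes. Kdm4d, higher in KO cells of all sets, did not differ between sets past the test (0.16 as deposited and -0.26 after centring, adjusted p = 0.773 and 0.666). Between set 6 and set 5 the KO effect differed for 0 members and 0 of all genes by limma, with 9 members at an unadjusted p under 0.05, against 10.5% of all genes, and for 3 members with the block within genotype, against 3.1%.

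Transcript length moved with these differences. The longest protein-coding transcript of the 60 members in GENCODE M21 had a median of 4660.5 bases, against 2995 for the 12463 genes of the table with a length. Members higher after centring in set 5 had a median of 6654 bases, those lower 2739, and the rest 4375. Spearman's rho of the centred difference with length was 0.34 over the 60 members and 0.16 over all genes in set 5, and 0.13 and 0.10 in set 6, given as a description, since the genes share their libraries. With centring within deciles of length, chosen after seeing the data, 3 members were higher and 0 lower in set 3, against 7.71% and 4.02% of all genes, 21 higher and 9 lower in set 5, against 25.1% and 23%, and 13 higher and 8 lower in set 6, against 19.5% and 16.8%. Against median centring, the called members of set 5 changed in part. Setd4 joined the higher ones and Kmt2b left them. Dnmt1, Tet1, Tet3 and Setd7 joined the lower ones, and Hdac1 and Kdm8 left them. With this centring the KO effect was larger in sets 5 and 6 for 20 members and smaller for 3, against 19.9% and 17.1% of all genes. Kdm6b, Kmt2b and Kdm7a were no longer among the larger ones.

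Genes that work with these enzymes were followed through lists, whose counts stand against the shares of all genes given above (24.9% higher and 24.7% lower after centring in set 5, and 18.8% and 18.5% in set 6). As deposited those shares were 50.1% higher and 8.08% lower in set 5, and 53.9% and 4.59% in set 6. Of 12 histone acetyltransferases, the writers opposed to the deacetylases, 10 were higher and 1 lower in KO cells of set 5 as deposited and 5 higher and 2 lower after centring, and 10 and 0, then 3 and 2, in set 6. Kat2b rose in both sets (1.46 and 1.17 as deposited, 1.08 and 0.76 after centring), and Hat1, which acetylates new histones, fell in set 5 (-0.45 and -0.84). Of 16 lysine methyltransferases outside the members, 4 were higher and 4 lower after centring in set 5, among them Ash1l, an H3K36 enzyme, which rose (1.19 and 0.80), and Smyd2, which fell (-0.89 and -1.28). Of 6 further demethylase genes in the table, Jmjd1c rose (1.57 and 1.18 in set 5) and Riox2 fell (-0.65 and -1.04), while Riox2 was higher in KO cells of set 3 (0.53 and 0.56). Of 8 arginine methyltransferases, 3 were higher and 2 lower as deposited in set 5 and 2 and 3 in set 6. After centring 0 were higher and 5 lower in set 5 and 0 and 6 in set 6, with a median centred difference of -0.53 in set 5 and -0.42 in set 6, against 0.00 for all genes, and with Prmt5, the main symmetric dimethylating enzyme, at -0.71 and -1.10 in set 5.

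Partners of the complexes did not all follow their enzymes. Of 10 PRC2 partners of Ezh1 and Ezh2, 5 were higher and 2 lower after centring in set 5, and in set 6 these counts were 6 and 2, with Phf1 (1.43 and 1.04 in set 5) and Jarid2 (1.36 and 0.97) rising, while neither Ezh gene passed after centring. Of 18 PRC1 subunits, 4 were higher and 4 lower in set 5 after centring, and 5 and 4 in set 6. Cbx7 and Bmi1 rose (1.25 and 1.04 as deposited in set 5). Of 12 subunits shared by the KMT2 and SETD1 complexes, 7 were higher and 1 lower as deposited in set 5 and 5 and 0 in set 6. After centring 0 were higher and 3 lower in set 5 and 1 and 6 in set 6, with Dpy30 at -0.41 and -0.79 in set 5. Of 23 subunits of class I deacetylase complexes, 12 were higher and 4 lower after centring in set 5, and 8 and 4 in set 6. Chd3 rose (1.11 and 0.72 in set 5) and Rcor2, a partner of Kdm1a, fell (-1.12 and -1.51). Of 12 partners of DNA methylation and demethylation, 5 were higher and 4 lower after centring in set 5, with Gadd45b, linked to DNA demethylation, at 1.87 and 1.48. Of 13 genes that supply cofactors, 1 was higher and 6 lower after centring in set 5, among the lower Ahcy, which removes the product of methylation (-0.94 and -1.33), and Idh1, a source of 2-oxoglutarate (-0.98 and -1.37). Proliferation genes moved with the sets. Of 20, 13 were higher and 1 lower in KO cells as deposited in set 3, against 6.92% and 4.46% of all genes. The counts were 3 and 2 in set 5, against 50.1% and 8.08%, and 7 and 0 in set 6, against 53.9% and 4.59%. After centring 14 were higher and 0 lower in set 3, against 7.29% and 3.28%. The centred counts were 0 and 13 in set 5, against 24.9% and 24.7%, and 0 and 1 in set 6, against 18.8% and 18.5%. As deposited the lists given above after centring alone had, in set 5, 8 higher and 2 lower of the other lysine methyltransferases, 7 and 0 of the PRC2 partners, 11 and 1 of the PRC1 subunits, 18 and 2 of the class I deacetylase complexes, 8 and 0 of the DNA methylation partners and 3 and 5 of the cofactor genes. In set 6 these counts were 8 and 1, 7 and 0, 9 and 0, 19 and 1, 10 and 0, and 4 and 2, in the same order. Of all genes 50.1% were higher and 8.08% lower as deposited in set 5, and 53.9% and 4.59% in set 6. In set 3, 0 of the acetyltransferases, arginine methyltransferases and subunits shared by the KMT2 and SETD1 complexes passed on either scale. The other lists held calls in set 3. On each scale 1 was higher and 0 lower of the further demethylases, the PRC2 partners and the DNA methylation partners. Of the PRC1 subunits 0 were higher and 2 lower on each scale. As deposited 0 were higher and 3 lower of the class I deacetylase complexes, 0 and 2 of the cofactor genes, and 0 and 1 of the other lysine methyltransferases. After centring these counts were 0 and 2, 1 and 1, and 0 and 0. Of all genes in set 3, 6.92% were higher and 4.46% lower as deposited, and 7.29% and 3.28% after centring. The part of proliferation in the results was not tested. The median centred difference in sets 5 and 6 was 0.18 and 0.16 for the acetyltransferases, 0.05 and 0.02 for the other lysine methyltransferases, -0.07 and -0.02 for the further demethylases, 0.18 and 0.28 for the PRC2 partners, 0.13 and -0.02 for the PRC1 subunits, -0.11 and -0.25 for the shared subunits of the KMT2 and SETD1 complexes, 0.18 and 0.03 for the class I deacetylase complexes, 0.34 and 0.05 for the DNA methylation partners, -0.44 and -0.12 for the cofactor genes, and -0.56 and -0.13 for the proliferation genes, against 0.00 and 0.00 for all genes.

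In the authors' deposited table, members with an adjusted p under 0.05 for KO against WT numbered 1 higher and 0 lower in set 3, against 3.26% and 0.654% of all genes of that table. Members in the authors' deposited table numbered 32 higher and 0 lower in set 5, against 34% and 3.79%, and 31 higher and 0 lower in set 6, against 33.1% and 2.07%. For set 6 against set 5 the authors' deposited table had 0 members past its threshold in KO and in WT cells, against 0.606% and 0.693% of all genes. The log2 fold changes of the authors' deposited table equalled the differences as deposited to within 1e-06 for 60 members in each comparison.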

How the data were processed

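RNA of 18 libraries of mouse CD4 T cells (KO and WT, 3 sets, 3 libraries per group) was analysed from the authors' deposited log2 expression values. Reads were quantified with Salmon 1.9.0, and edgeR, limma and GRCm39 are named, per the submitters' processing notes, with a normalization not given in the sources used here. The authors' deposited table of comparisons holds log2 fold changes, a t score and p-values, and its calls are quoted as theirs. Sets and genotypes were read from the labels.

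From the deposited values, limma 3.58.1 in R 4.3.3 fitted 6 group means with an intensity trend (12 residual degrees of freedom), on values as deposited and after median centring; p-values were adjusted by Benjamini-Hochberg over 12547 genes with a threshold of 0.05. The script was tested on simulated data. The members and lists were chosen with earlier results of these data known. Members called in the same direction on both scales in a KO against WT comparison are given with library values, up to 24, and other members by their differences; of each list, at most 2 called genes per direction are named. Same-numbered libraries of sets 5 and 6 deviated together within a genotype (correlation over 12547 genes 0.22 to 0.34 in KO and 0.12 to 0.16 in WT cells). Same-numbered WT libraries of set 3 did so more weakly, at 0.069 to 0.074 with set 5 and 0.044 to 0.075 with set 6. Other numbers gave -0.049 to -0.030 and -0.056 to 0.006. For KO libraries of set 3, same and other numbers overlapped. This comes from the data and not from the labels, and the main model holds no term for it. KO and WT libraries were not paired. Alternatives were quantile normalization, a mean level of at least 6, 1 added on the linear scale, a minimum fold of 1.2, no trend, a replicate block, the compared groups alone, and leaving out each library. Added after seeing the data were the fit without WT library 1 of each set, centring within deciles of transcript length, and set 5 or 6 alone in the comparison with set 3. Promoter sequences come from RefSeq for GRCm38.p6, which is not the build of the files, so its coordinates apply to these sequences alone.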

Additional observations from a re-analysis of the deposited data

Results flagged for a closer look

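For 23 members the test of the difference between sets passed on both scales: the KO minus WT difference averaged over sets 5 and 6 exceeded that of set 3. The values are differences of differences in log2 after median centring. Among the deacetylases they were Hdac4 1.33, Hdac10 1.16, Hdac6 0.80 and Hdac5 0.45. Among the methyltransferases they were Setd4 1.0, Kmt2d 0.93, Setd1b 0.90, Kmt2c 0.85, Kmt2a 0.80, Setd2 0.77, Kmt5b 0.70, Kmt2b 0.54 and Setdb2 0.42. Among the demethylases they were Kdm5b 0.84, Kdm5a 0.73, Kdm3a 0.59, Kdm2a 0.58, Kdm2b 0.56, Kdm7a 0.55, Kdm3b 0.48, Kdm6b 0.47 and Kdm4a 0.30, and the sirtuin Sirt7 had 0.40. The centred calls of Setd4, Kdm7a, Setdb2, Kdm6b and Kdm2b were lost when at least 1 single library was left out. With centring within deciles of length, Kdm6b, Kmt2b and Kdm7a did not pass (adjusted p = 0.18, 0.0735 and 0.17). Groups of 3 libraries are too small for the test of a library that stands apart from its group, which was not run.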

How the results depend on the processing

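Adding 1 on the linear scale changed no count by over 1.5 times. Centring at the median gave 0 members lower in set 3, 21 higher and 7 lower in set 5, 12 and 8 in set 6, 0 between WT sets 6 and 5, and 26 whose KO effect differed between set 3 and sets 5 and 6. Quantile normalization gave 1 lower in set 3, 21 and 7 in set 5, 11 and 9 in set 6, 0 between WT sets 6 and 5, and 28 for the KO effect. Centring within deciles of length gave 3 and 0 in set 3, 21 and 9 in set 5, 13 and 8 in set 6, 0 between WT sets, and 23 for the KO effect. With the compared groups alone, 0 were lower in set 3 and 1 passed between KO sets 6 and 5. With a mean level of at least 6, 0 were higher in set 3 and 0 lower in set 6, because Kdm4d and Tet1 lay under that level and were not tested. With a minimum fold of 1.2, 0 were lower in sets 3, 5 and 6, and 0 passed between sets 6 and 5 in either genotype. Without the trend, 1 was lower in set 3 and 3 passed between KO sets 6 and 5. Without WT library 1 of each set, 0 were lower in sets 3 and 6, 3 passed between KO sets 6 and 5 and 0 between WT sets. The cause of the other changes was not tested.

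The replicate block gave 2 higher and 6 lower in set 3 and 2 between WT sets 6 and 5. The block with median centring gave 2 higher in set 3, 24 and 8 in set 5, 17 and 9 in set 6, 12 between KO sets 6 and 5, and 29 for the KO effect. The block within genotype gave 7 between WT sets 6 and 5, 15 between KO sets, and 3 for the difference of the KO effect between sets 6 and 5. It changed no other count by over 1.5 times.

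Leaving out 1 library gave 1 to 2 higher and 0 to 11 lower in set 3, 40 to 43 and 1 in set 5, 37 to 43 and 0 to 1 in set 6, 46 to 49 between KO sets 5 and 3, 38 to 42 between WT sets 5 and 3, 1 to 7 between KO sets 6 and 5, 0 to 1 between WT sets 6 and 5, 43 to 47 for the KO effect against set 3, and 0 between sets 6 and 5. After centring it gave 1 to 2 higher and 0 to 9 lower in set 3, 19 to 22 and 5 to 9 in set 5, and 11 to 16 and 4 to 6 in set 6.

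Median centring changed the sign of the KO minus WT difference for 2 members in set 3, 14 in set 5 and 19 in set 6. Of these 0, 7 and 10 passed on at least 1 of the scales. Under median centring, quantile normalization and the block with centring, in this order, these were in set 5 Ezh2 -0.10, -0.093 and -0.10, Hdac1 -0.17, -0.16 and -0.17, Hdac2 -0.37, -0.36 and -0.37, Hdac3 -0.066, -0.079 and -0.066, Setd3 -0.031, -0.018 and -0.031, Setd7 -0.021, -0.025 and -0.021, Tet3 -0.089, -0.086 and -0.089, and in set 6 Hdac1 -0.14, -0.15 and -0.14, Hdac2 -0.24, -0.24 and -0.24, Hdac3 -0.12, -0.13 and -0.12, Kdm1a -0.39, -0.41 and -0.39, Kdm1b -0.033, -0.045 and -0.033, Kdm4c -0.023, -0.028 and -0.023, Kmt2e -0.076, -0.098 and -0.076, Kmt5a -0.23, -0.23 and -0.23, Setd3 -0.054, -0.057 and -0.054, Tet2 -0.037, -0.043 and -0.037. In set 6 Setd7, at 0.17 as deposited, was -0.25 under quantile normalization and -0.24 after centring with or without the block, and Kdm5b was -0.062 with centring within deciles of length. Depth per library is unknown, and the log2 values hold no counting error. With 3 libraries per group and nearly equal distributions within groups, small differences are the least secure.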
